A study of Mus musculus with 21 samples.

Results

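Oxygen sensing by the hypoxia-inducible factors was followed through 9 genes of mouse macrophages: Hif1a, Epas1, Egln1, Egln3, Vegfa, Bnip3, Ndrg1, Ankrd37 and Adm. They were chosen by name, and all 9 were found among the 23250 genes of the deposited table and passed the filter on low counts. The cells were macrophages grown for 7 days from C57BL/6J bone marrow, in medium that held the supernatant of a line secreting GM-CSF; the series describes them as deficient in the mannose receptor. They were left untreated (0 h), or given for 4, 12 or 24 h either FcMR, in which the Fc region of human IgG1 is joined to the extracellular region of the mannose receptor, or an isotype control protein. Each of the 7 groups holds 3 libraries, 21 in all, and the question put by the series is what soluble mannose receptor does to macrophages. No untreated library was kept for 4, 12 or 24 h, so in isotype against untreated the hours in culture cannot be told apart from the control protein itself.

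Hif1a and Epas1 encode the oxygen-regulated alpha subunits HIF-1α and HIF-2α, which pair with the stable beta subunit ARNT to bind hypoxia response elements. When oxygen is at hand, prolyl hydroxylases (PHD2 from Egln1, PHD3 from Egln3) mark the alpha subunits for the ubiquitin ligase that contains VHL, so that much of the control lies in protein stability, which RNA does not show. In macrophages Hif1a transcription is also known to rise with inflammatory stimuli. Egln3, Vegfa, Bnip3, Ndrg1, Ankrd37 and Adm are known hypoxia-induced genes, and Egln1 is one too, so 2 of the sensors are themselves targets of the factors they restrain.

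The core of a hypoxia response element is ACGTG or GCGTG, and the upstream sequences of the 5 genes that rose with FcMR at 24 h and have a RefSeq promoter window are shown because they are the members whose RNA moved together at that time. Each sequence is read 5′ to 3′ on the gene's strand from the exon-free stretch before the RefSeq start (build GRCm38.p6), with every ACGTG or GCGTG match on either strand in capitals; on the reverse strand these read CACGT and CACGC, and joined or overlapping matches form 1 run. The stretches lie at chr12:73907617-73907866 on the plus strand for Hif1a, chr12:54203875-54204124 on the minus strand for Egln3, chr17:46032378-46032627 on the minus strand for Vegfa, chr7:138909520-138909756 on the minus strand for Bnip3 and chr8:45999868-46000100 on the minus strand for Ankrd37.
Hif1a: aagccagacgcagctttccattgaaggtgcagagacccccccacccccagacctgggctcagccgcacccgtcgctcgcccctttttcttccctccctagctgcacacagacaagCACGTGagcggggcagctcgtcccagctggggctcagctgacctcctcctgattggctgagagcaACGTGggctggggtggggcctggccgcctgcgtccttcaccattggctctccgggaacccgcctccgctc
Egln3: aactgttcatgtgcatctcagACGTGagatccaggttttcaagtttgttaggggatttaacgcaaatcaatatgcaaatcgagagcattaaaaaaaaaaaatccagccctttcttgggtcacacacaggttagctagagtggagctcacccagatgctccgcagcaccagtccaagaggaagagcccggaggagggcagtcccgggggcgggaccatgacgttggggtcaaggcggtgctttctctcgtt
Vegfa: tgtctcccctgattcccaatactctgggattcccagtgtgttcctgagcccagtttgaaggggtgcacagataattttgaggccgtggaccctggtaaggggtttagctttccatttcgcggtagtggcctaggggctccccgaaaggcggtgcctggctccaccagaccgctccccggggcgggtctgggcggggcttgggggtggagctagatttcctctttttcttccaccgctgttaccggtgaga
Bnip3: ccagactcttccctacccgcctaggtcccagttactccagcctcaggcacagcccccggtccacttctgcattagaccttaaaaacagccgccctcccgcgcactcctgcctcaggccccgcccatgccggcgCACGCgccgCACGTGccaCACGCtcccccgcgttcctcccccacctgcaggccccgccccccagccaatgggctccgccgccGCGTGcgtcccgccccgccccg
Ankrd37: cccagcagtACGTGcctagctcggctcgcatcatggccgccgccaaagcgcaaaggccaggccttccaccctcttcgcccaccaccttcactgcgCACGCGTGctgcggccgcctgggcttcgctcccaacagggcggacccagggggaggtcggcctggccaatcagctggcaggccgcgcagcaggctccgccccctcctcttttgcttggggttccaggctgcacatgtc
The Bnip3 stretch held 5 matches, Hif1a and Ankrd37 held 3 each, Egln3 held 1, and the Vegfa stretch held none of these letters. The Bnip3 and Hif1a stretches each carried the palindrome CACGTG, which counts once on each strand. Over whole windows of 250 bases before to 50 after the start, 7 of the 8 windows of the 7 members that have one held a match, against 43.8% of the 32851 windows in the table. Vegfa's other window, which lies inside the gene, held 2. The Hif1a and Ankrd37 stretches lie before the RefSeq start but inside the wider gene bounds of GENCODE M21. The motif is short, so a match is a description of the letters only. Epas1 and Ndrg1 had no window.

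Before treatment, Hif1a RNA was far more abundant than Epas1 RNA. Per kilobase of transcript, the untreated level was 41.7 ± 4.47 CPM per kb for Hif1a (CPM is counts scaled to a common library total, after TMM scaling; all ± values are SD, n = 3) and 0.789 ± 0.264 CPM per kb for Epas1. Between them came Vegfa at 33.2 ± 5.38, Ndrg1 at 28.4 ± 2.97, Bnip3 at 27.6 ± 1.72, Egln1 at 12.5 ± 0.831, Ankrd37 at 8.37 ± 1.98 and Egln3 at 5.01 ± 0.452 CPM per kb. Adm, the adrenomedullin precursor, was lowest at 0.19 ± 0.116 CPM per kb. Among neighbours in this order, the means ± SD overlapped for Hif1a and Vegfa, Vegfa and Ndrg1, and Ndrg1 and Bnip3, and for no others. Differences between genes were not tested. Library by library, Hif1a stood above Vegfa in all 3 (36.5, 44.6 and 43.8 against 30.9, 29.4 and 39.4 CPM per kb).

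**Figure D1:**
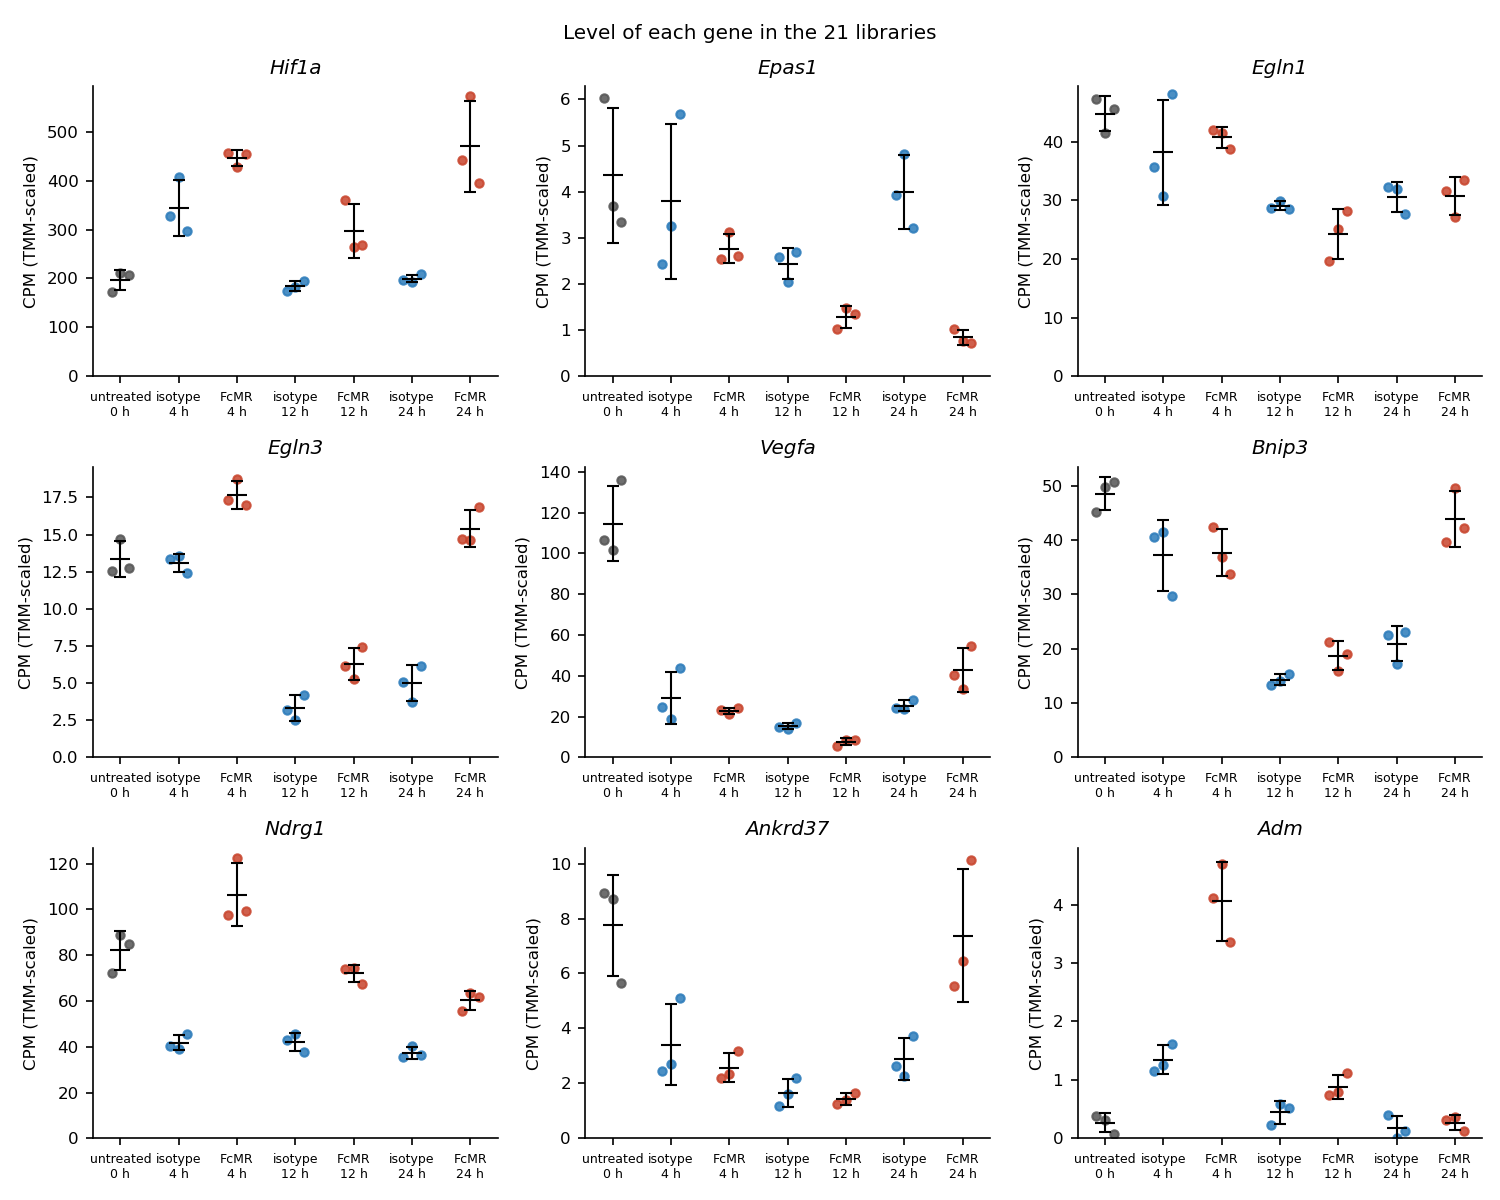
Level of each of the 9 genes in CPM (vertical axis, linear from 0) in the 7 groups; each point is 1 library, and the bar is the mean ± SD over 3. Hif1a and Egln3 were high again with FcMR at 24 h (395 to 574 and 14.7 to 16.8 CPM) while their 24 h isotype libraries stayed at 193 to 209 and 3.75 to 6.18 CPM.

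FcMR was followed by higher Hif1a RNA and lower Epas1 RNA, and both effects were larger at 24 h than at 4 h by a test of that difference. That difference was not rerun under the alternatives, so how far it depends on the processing is not known. Their joint test over the 3 times was rerun. Hif1a lost the joint call in 13 of 30 alternatives, RLE scaling (adjusted p = 0.0564, edgeR) and the authors' factors (adjusted p = 0.0821, edgeR) among them, and Epas1 in 6 of 30. Hif1a stood at 173, 211 and 207 CPM in the 3 untreated libraries. With the isotype control it was 329, 408 and 297 CPM at 4 h, 175, 183 and 196 at 12 h, and 198, 193 and 209 at 24 h. With FcMR it was 457, 428 and 454 CPM at 4 h, 361, 264 and 268 at 12 h, and 442, 574 and 395 at 24 h. The FcMR libraries lay above the isotype libraries at every time with no overlap, and the isotype libraries had come back to the untreated range by 12 h. At 12 h Hif1a rose by 0.69 on the log2 scale (SE 0.15, adjusted p = 0.0025, edgeR) and at 24 h by 1.23 (SE 0.15, adjusted p = 6.03e-06, edgeR), which is 2.35-fold. At 4 h the difference was 0.37 (SE 0.15) and did not pass at adjusted p = 0.0858 in edgeR, but it passed with DESeq2 (0.44, adjusted p = 0.0359), with the authors' scaling factors in edgeR (0.46, adjusted p = 0.0434) and in edgeR without isotype 4 h replicate 2 (0.55, adjusted p = 0.0215).

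Epas1 moved the other way and was low throughout, with 6 to 178 counts per library. Its untreated libraries held 6.02, 3.68 and 3.35 CPM. At 12 h the isotype libraries held 2.58, 2.05 and 2.7 CPM and the FcMR libraries 1.03, 1.48 and 1.36. At 24 h the isotype libraries held 3.92, 4.82 and 3.22 CPM, near the untreated level, and the FcMR libraries 1.03, 0.772 and 0.732, the lowest mean of the 7 groups. Every FcMR library at 12 and 24 h lay under every isotype library of its time. Epas1 fell by 2.25 on the log2 scale at 24 h (SE 0.32, adjusted p = 4.92e-05, edgeR), a level 4.76-fold lower. The 12 h fall of 0.95 (SE 0.30, adjusted p = 0.0372, edgeR) lost its call under 10 of 18 alternatives, among them leaving out FcMR 12 h replicate 1 (-0.82, adjusted p = 0.134), replicate 2 (-1.04, adjusted p = 0.0534) or replicate 3 (-0.996, adjusted p = 0.0758), or isotype 12 h replicate 1 (-0.92, adjusted p = 0.0945) or replicate 3 (-0.86, adjusted p = 0.127), in the same edgeR test. At 4 h the groups overlapped, at 2.44, 3.25 and 5.68 CPM with isotype and 2.55, 3.12 and 2.61 with FcMR.

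The RNA ratio of the 2 alpha subunits was compared per library. The ratio of Hif1a to Epas1, both per kilobase, was 33.4 to 72.1 in the untreated libraries and 46.7 to 75.8 with isotype at 24 h. With FcMR at 24 h it was 502 to 868. At 12 h it was 79.3 to 104 with isotype and 207 to 410 with FcMR, so the ranges did not overlap at either time. These ratios rest on few Epas1 counts and describe the libraries, with no test of their own.

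Of the 2 sensor genes, Egln3 passed the test at 12 and 24 h and Egln1 at no time; the difference between them was not tested. Egln1, the prolyl hydroxylase with the main part in normal oxygen, was 47.3, 41.5 and 45.5 CPM untreated, and did not pass the test between FcMR and isotype at any time. Its 24 h libraries held 32.3, 32 and 27.7 CPM with isotype and 31.6, 27.1 and 33.4 with FcMR, a log2 difference of 0.00 (SE 0.15, adjusted p = 0.995, edgeR). The differences were 0.09 (SE 0.15, adjusted p = 0.739) at 4 h and -0.26 (SE 0.14, adjusted p = 0.287) at 12 h in the same edgeR fit. Against untreated cells Egln1 fell with isotype by 0.62 at 12 h (SE 0.14, adjusted p = 0.00191, edgeR) and by 0.55 at 24 h (SE 0.14, adjusted p = 0.00536, edgeR).

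Egln3, the hydroxylase gene known for its strong induction by hypoxia, had the largest FcMR rise of the 9 genes at 24 h. It stood at 12.5, 14.7 and 12.8 CPM untreated and at 13.4, 13.5 and 12.4 with isotype at 4 h. Isotype libraries then held 3.2, 2.49 and 4.23 CPM at 12 h and 5.1, 3.75 and 6.18 at 24 h, a loss of most of the untreated level. FcMR libraries held 17.4, 18.7 and 17 CPM at 4 h, 6.17, 5.24 and 7.43 at 12 h, and 14.7, 14.7 and 16.8 at 24 h, above the isotype libraries of the same time without overlap. Egln3 rose by 0.87 at 12 h (SE 0.18, adjusted p = 0.00236, edgeR) and by 1.62 at 24 h (SE 0.18, adjusted p = 3.43e-06, edgeR). The 4 h difference of 0.44 (SE 0.17) missed at adjusted p = 0.0916 in edgeR and stayed uncalled in 14 of 18 alternatives. It passed in 4, DESeq2 (0.51, adjusted p = 0.0382) and limma-voom (0.45, adjusted p = 0.0484) among them. Per kilobase, Egln3 RNA was 0.629 to 0.73 of Egln1 RNA with FcMR at 24 h, and 0.159 to 0.301 with isotype.

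Among the targets, Vegfa, the angiogenic growth factor, changed sign. Its untreated libraries held 107, 102 and 136 CPM, and no treated library exceeded 54.5 CPM. At 12 h it was 15, 14.1 and 17 CPM with isotype and 5.65, 8.64 and 8.55 with FcMR. At 24 h it was 24, 23.5 and 28.3 CPM with isotype and 40.3, 33.3 and 54.5 with FcMR. The groups were apart at both times, with FcMR lower at 12 h and higher at 24 h. Vegfa fell by 1.02 at 12 h (SE 0.25, adjusted p = 0.0087, edgeR) and rose by 0.75 at 24 h (SE 0.24, adjusted p = 0.0345, edgeR). The change of the FcMR effect from 12 to 24 h was 1.77 (SE 0.35, adjusted p = 0.0108, edgeR), and Vegfa was the only member for which that step passed, where 1.73% of the 13468 genes tested did. The step was not rerun under the alternatives. The 24 h rise lost its call without any 1 of 4 libraries: in the same edgeR test it was 0.73 (adjusted p = 0.0953) without isotype replicate 1, 0.71 (adjusted p = 0.0981) without isotype replicate 2, 0.80 (adjusted p = 0.0516) without FcMR replicate 1 and 0.55 (adjusted p = 0.12) without FcMR replicate 3. At 4 h the isotype libraries spread from 18.8 to 43.7 CPM around the FcMR libraries at 21.3 to 24, and the difference of -0.37 became 0.06 without isotype 4 h replicate 3, neither passing.

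Bnip3, which encodes a mitochondrial protein that promotes mitophagy, is a further target of the pathway. It was 45.1, 49.7 and 50.8 CPM untreated. At 12 h it was 13.4, 14.1 and 15.3 CPM with isotype and 21.2, 16 and 19 with FcMR. At 24 h it was 22.6, 17.3 and 23 CPM with isotype and 39.7, 49.7 and 42.2 with FcMR, which is near the untreated range. Bnip3 rose by 1.07 at 24 h (SE 0.15, adjusted p = 3.53e-05, edgeR). The 12 h groups were apart too, but the difference of 0.39 (SE 0.15) did not pass at adjusted p = 0.0892 in edgeR. At 4 h the groups overlapped, at 29.7 to 41.5 CPM with isotype and 33.7 to 42.4 with FcMR.

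Ankrd37, an ankyrin-repeat protein gene used in hypoxia signatures, had an FcMR difference that passed at 24 h alone: the values were -0.48 at 4 h (SE 0.34, adjusted p = 0.367, edgeR) and -0.25 at 12 h (SE 0.33, adjusted p = 0.738, edgeR). Its untreated libraries held 8.94, 8.69 and 5.64 CPM. At 24 h the isotype libraries held 2.65, 2.25 and 3.73 CPM and the FcMR libraries 5.55, 6.47 and 10.1, with no overlap. The rise was 1.36 on the log2 scale (SE 0.32, adjusted p = 0.00439, edgeR). At 4 and 12 h all libraries lay between 1.18 and 5.1 CPM and the groups overlapped. Ankrd37 lies across Ufsp2 on the opposite strand, whose counts were 384% to 5000% of its own, and the counting is not stated to use strand, so reads of the pair may be shared out wrongly. Ufsp2 itself rose by 0.36 at 24 h (SE 0.11, adjusted p = 0.0279, edgeR).

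Ndrg1, a stress-responsive gene induced by hypoxia, was the one member that rose at all 3 times. It was 72.4, 88.7 and 85 CPM untreated. Isotype libraries held 40.5, 39.1 and 45.4 CPM at 4 h, 42.9, 45.6 and 37.6 at 12 h, and 35.5, 40.4 and 36.3 at 24 h. FcMR libraries held 97.7, 122 and 99.3 CPM at 4 h, 74.1, 74.3 and 67.6 at 12 h, and 55.5, 63.5 and 61.7 at 24 h. The isotype level was nearly flat while the FcMR level came down, and no FcMR library reached as low as any isotype library. The rise was 1.35 at 4 h (SE 0.11, adjusted p = 2.2e-07, edgeR), 0.78 at 12 h (SE 0.11, adjusted p = 4.77e-05, edgeR) and 0.69 at 24 h (SE 0.11, adjusted p = 0.000147, edgeR). The effect was smaller at 12 h than at 4 h by 0.57 (SE 0.15, adjusted p = 0.0376, edgeR), and Ndrg1 was the only member for which that step passed, against 5.39% of all genes tested. That step was not rerun under the alternatives either.

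Adm had 0 to 125 counts per library and its peak was early. It was 0.389, 0.322 and 0.0817 CPM untreated, 1.15, 1.26 and 1.62 with isotype at 4 h, and 4.11, 4.7 and 3.35 with FcMR at 4 h. The 3 groups did not overlap. The FcMR rise at 4 h was 1.59 (SE 0.45, adjusted p = 0.0185, edgeR), and it did not pass without FcMR replicate 1 (1.60, adjusted p = 0.0504) or replicate 2 (1.47, adjusted p = 0.088), nor without isotype replicate 1 (1.51, adjusted p = 0.075) or replicate 2 (1.59, adjusted p = 0.0537), in the same edgeR test. At 12 h it was 0.224, 0.587 and 0.515 CPM with isotype and 0.734, 0.786 and 1.12 with FcMR, apart but not past the test (adjusted p = 0.18, edgeR). At 24 h the isotype libraries held 4, 0 and 1 counts and the FcMR libraries 3, 10 and 1, so a difference was not detectable at this depth.

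**Figure D2:**
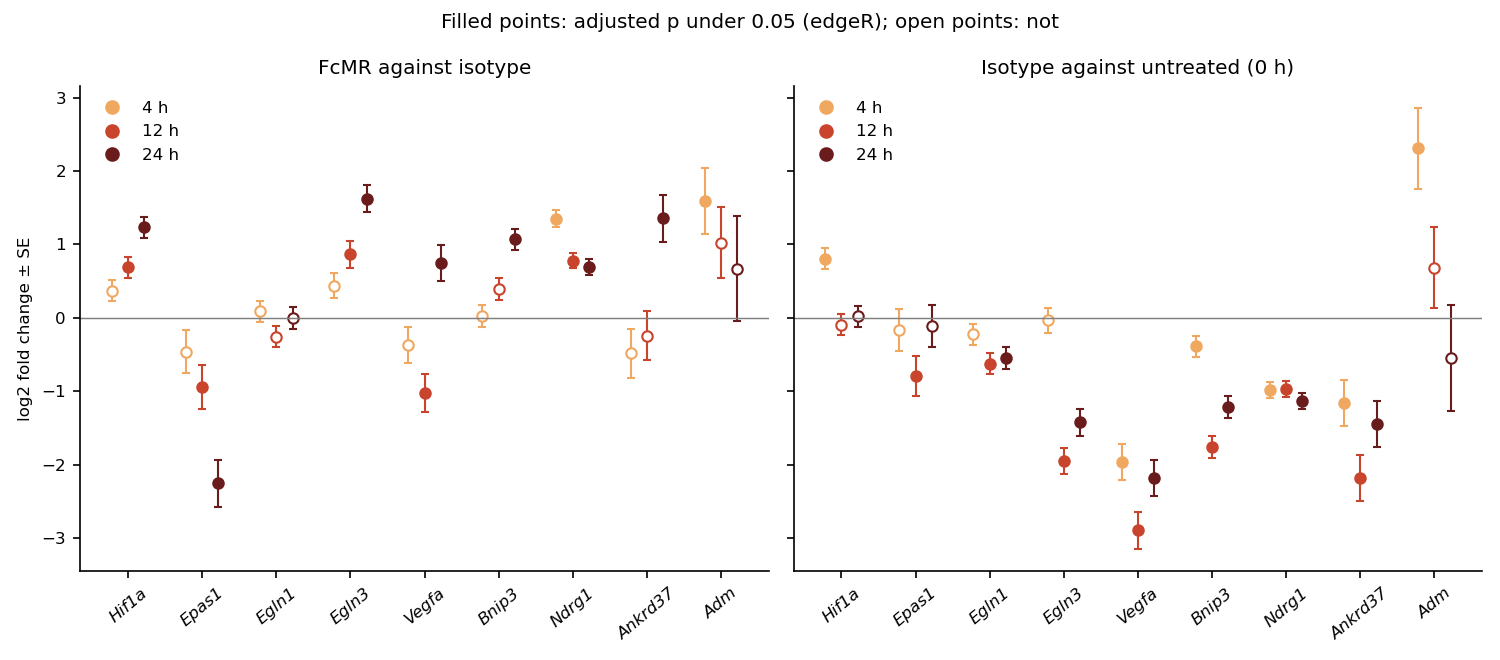
Log2 fold change ± SE of the 9 genes (horizontal axis) for FcMR against isotype (left) and isotype against untreated (right) at 4, 12 and 24 h; filled points have an adjusted p under 0.05 in edgeR. In the left panel 6 genes rose and Epas1 fell at 24 h; in the right panel no gene passed the test as higher at 12 or 24 h. The panels share the isotype libraries.

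Counted over the 9 genes, 2 rose and 0 fell with FcMR at 4 h, where 17.7% of all 13468 genes were called (8.62% higher, 9.13% lower). That split of 1161 higher and 1229 lower genes moved with the scaling: it was 1412 and 839 with RLE factors, 1243 and 608 with the authors' factors, 1522 and 829 with DESeq2, and 1331 and 439 with no expression filter. At 12 h 3 rose (Hif1a, Egln3, Ndrg1) and 2 fell (Epas1, Vegfa), where 16.1% of all genes were called (8.61% higher, 7.49% lower). At 24 h 6 rose (Hif1a, Egln3, Vegfa, Bnip3, Ndrg1, Ankrd37) and Epas1 fell, where 20.9% of all genes were called (11.4% higher, 9.44% lower). The median log2 difference of the 9 was 0.09, 0.39 and 0.75 at 4, 12 and 24 h, beside -0.07, -0.02 and 0.01 over all genes tested. Groups without overlap were counted for 4, 8 and 7 of the 9, where 29.7%, 35.4% and 34.4% of all genes had them. The genes were chosen with results of these data in view, so these counts describe the chosen genes.

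The FcMR effect differed over the 3 times for 7 of the 9 genes in a joint edgeR test, where 11% of all genes were called. From 4 to 24 h the effect grew by 1.84 for Ankrd37 (SE 0.46, adjusted p = 0.0128), by 1.18 for Egln3 (SE 0.25, adjusted p = 0.00424), by 1.12 for Vegfa (SE 0.35, adjusted p = 0.0394), by 1.04 for Bnip3 (SE 0.21, adjusted p = 0.00276) and by 0.86 for Hif1a (SE 0.21, adjusted p = 0.0091) in edgeR. It became more negative for Epas1 (-1.79, SE 0.43, adjusted p = 0.0105) and smaller for Ndrg1 (-0.67, SE 0.15, adjusted p = 0.00778) in the same fit. That comparison of 24 h with 4 h called 7 of the 9 genes, where 13.9% of all genes were called. It was not rerun under the alternatives. Egln1 and Adm did not pass the joint test (adjusted p = 0.5 and 0.762, edgeR). The joint count fell to 3 without isotype 24 h replicate 2, to 4 without isotype 24 h replicate 1 and to 4 without FcMR 4 h replicate 2.

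Isotype against untreated gives the course under the control protein, and 4 of the targets fell at every time. The log2 differences at 4, 12 and 24 h were -1.97, -2.89 and -2.18 for Vegfa. They were -1.16, -2.18 and -1.44 for Ankrd37, -0.98, -0.97 and -1.13 for Ndrg1, and -0.39, -1.76 and -1.21 for Bnip3. The adjusted p of the Bnip3 fall at 4 h was 0.0467 in edgeR, and it was lost under 10 of 18 alternatives, including RLE scaling (adjusted p = 0.0536) and leaving out any of the 3 untreated libraries or isotype 4 h replicate 1 or 3 (adjusted p of 0.0553 to 0.184). The other 11 of these falls had adjusted p-values from 3.38e-08 (Bnip3, 12 h) to 0.00795 (Ankrd37, 4 h) in edgeR. Egln3 did not differ detectably at 4 h (-0.03, SE 0.17, adjusted p = 0.911, edgeR) and fell by 1.95 at 12 h (adjusted p = 1.06e-07) and by 1.42 at 24 h (adjusted p = 5.87e-06). Epas1 fell by 0.79 at 12 h (SE 0.28, adjusted p = 0.03, edgeR), which did not pass without untreated replicate 1 (-0.50, adjusted p = 0.189) or without isotype 12 h replicate 1 (-0.79, adjusted p = 0.0683), replicate 2 (-0.68, adjusted p = 0.1) or replicate 3 (-0.85, adjusted p = 0.06).

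The genes that rose under isotype did so at 4 h. Hif1a was 0.81 higher than in untreated cells (SE 0.15, adjusted p = 0.000279, edgeR) and Adm 2.31 higher (SE 0.55, adjusted p = 0.00305, edgeR), the latter on 1 to 7 untreated counts and 7 to 14 isotype counts per library. The Hif1a difference was -0.09 at 12 h (SE 0.14, adjusted p = 0.652, edgeR) and 0.02 at 24 h (SE 0.15, adjusted p = 0.918, edgeR). In all, 2 of the 9 genes rose and 4 fell at 4 h, where 35.6% of all genes were called (20.4% higher, 15.2% lower). At 12 h 7 fell and 0 rose, where 41.6% were called (22% higher, 19.6% lower), and at 24 h 6 fell and 0 rose, where 42.2% were called (21.3% higher, 20.9% lower). The 3 comparisons share the untreated libraries, and each shares its isotype libraries with FcMR against isotype.

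**Figure D3:**
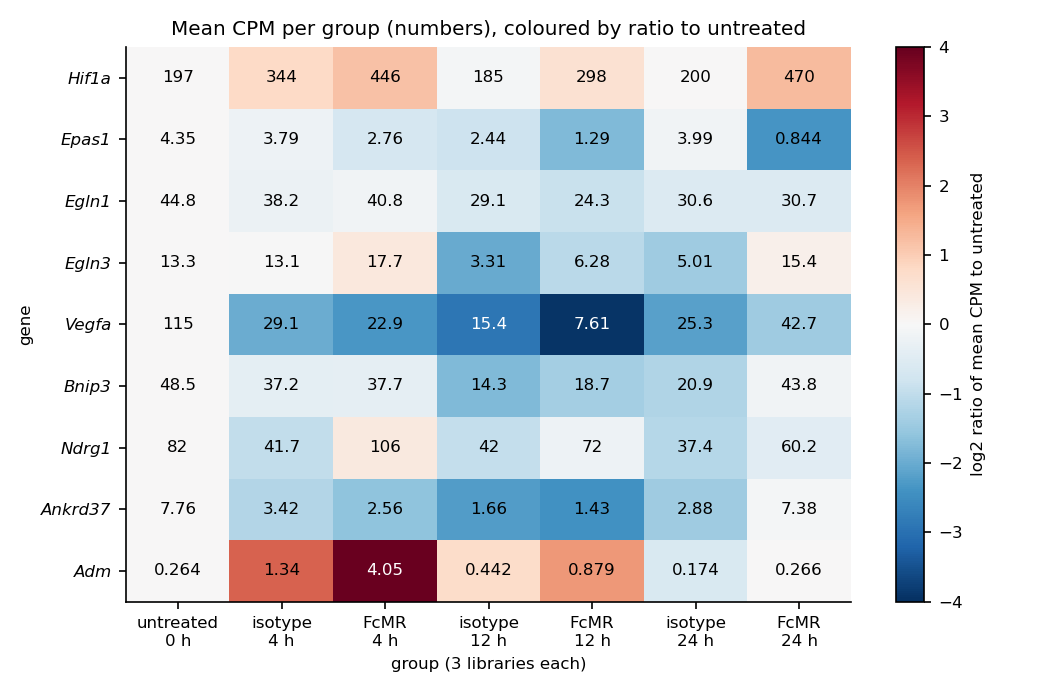
Mean CPM of the 9 genes (rows) in the 7 groups (columns, 3 libraries each), coloured by the log2 ratio to the untreated mean. Bnip3, Ankrd37 and Egln3 with FcMR at 24 h (43.8, 7.38 and 15.4 CPM) stand near their untreated means (48.5, 7.76 and 13.3), while Vegfa (42.7 against 115) does not.

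Set beside the untreated level, the 24 h FcMR libraries fall into 3 patterns. Bnip3 and Ankrd37 had ranges that overlapped the untreated ones, and the Egln3 ranges met at their ends: 14.7 to 16.8 against 12.5 to 14.7 CPM for Egln3, 39.7 to 49.7 against 45.1 to 50.8 CPM for Bnip3, and 5.55 to 10.1 against 5.64 to 8.94 CPM for Ankrd37. Vegfa, Ndrg1, Egln1 and Epas1 stayed under the untreated range, and Hif1a stood above it. Adm, at 0.122 to 0.368 against 0.0817 to 0.389 CPM, overlapped its untreated range on 10 counts or fewer in every library. FcMR was not tested against untreated, so these are levels side by side.

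Other genes of the pathway were read from 3 lists written by name. Of 16 tested genes of the HIF machinery (partners, hydroxylases, the VHL ligase, coactivators), 2, 3 and 1 were called for FcMR against isotype at 4, 12 and 24 h, where 17.7%, 16.1% and 20.9% of all genes were called; a share near or under that background is no result about the list. At 4 h Cited2, a competitor of HIF for its coactivators, rose by 1.06 (SE 0.16, adjusted p = 0.000123, edgeR), and Vhl fell by 0.49 (SE 0.10, adjusted p = 0.00191, edgeR). At 12 h the beta subunit gene Arnt2 fell by 0.90 (SE 0.22, adjusted p = 0.00763), the coactivator gene Ep300 fell by 0.26 (SE 0.06, adjusted p = 0.00844) and the elongin gene Eloc rose by 0.40 (SE 0.13, adjusted p = 0.0426) in edgeR. Ep300 alone was called at 24 h. Arnt, the main beta subunit, and Hif1an, the asparaginyl hydroxylase, were not called for FcMR against isotype at any time. Against untreated cells, isotype libraries had lower Hif1an at all 3 times (-0.46, -0.55 and -0.45) and lower Arnt at 12 and 24 h (-0.26 and -0.28), all past the test. The list's median was 0.02, -0.06 and 0.06.

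Of 33 tested hypoxia targets outside glycolysis, 8 rose and 5 fell at 4 h, 7 rose and 3 fell at 12 h, and 18 rose and 1 fell at 24 h for FcMR against isotype, with medians of 0.02, 0.18 and 0.40. The background of calls over the whole table was 8.62% up and 9.13% down at 4 h, 8.61% and 7.49% at 12 h, 11.4% and 9.44% at 24 h. Nos2, the inducible nitric oxide synthase of activated macrophages, was 24.5 ± 10.2 CPM with isotype and 228 ± 27.2 with FcMR at 4 h (n = 3), a rise of 3.20 (SE 0.25, adjusted p = 1.3e-07, edgeR). It also rose at 12 h (2.87) and 24 h (3.36). Edn1, the endothelin precursor, rose by 2.75 at 4 h (SE 0.17, adjusted p = 6.3e-09, edgeR). Nos2 and Edn1 are also known targets of inflammatory signals.

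Other targets fell early. Angptl4, a secreted inhibitor of lipoprotein lipase, fell by 1.496 at 4 h (SE 0.34, adjusted p = 0.00486, edgeR) and by 1.05 at 12 h (SE 0.29, adjusted p = 0.0175, edgeR). Its level was low, at 1.82 ± 0.324 CPM with isotype and 0.671 ± 0.159 with FcMR at 4 h (n = 3). In the FcMR 4 h libraries 3 counts correspond to 0.113 to 0.559 CPM. Narf, a nuclear prelamin-binding protein gene, fell by 0.84 at 4 h (SE 0.12, adjusted p = 8.21e-05, edgeR) and rose by 1.12 at 24 h (SE 0.11, adjusted p = 9.41e-07, edgeR). Plin2, the lipid droplet coat gene, was the one gene of the list outside glycolysis that fell at 24 h, where DESeq2 and limma-voom each called 2 lower and edgeR with GC correction 4. It went from 539 ± 11.8 to 279 ± 40 CPM (-0.95, SE 0.09, adjusted p = 7.73e-07, edgeR).

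Of 20 glycolytic targets, 3 rose at 4 h (Pfkp, Hk1 and Hk2, by 0.60, 0.52 and 0.48), 3 fell at 12 h (Aldoc, Pfkfb4 and Pdk1, by 0.91, 0.65 and 0.60), and at 24 h Pfkfb3 and Pgk1 rose by 0.60 and 0.45 while Pdk1 fell by 0.42. The 3 called at each time stand beside 17.7%, 16.1% and 20.9% of all genes, so their number is close to the background. Aldoc, a fructose-bisphosphate aldolase, went from 31.3 ± 2.53 to 16.6 ± 1.94 CPM at 12 h (n = 3). Pdk1, the kinase that restrains pyruvate entry to mitochondria, went from 40.8 ± 1.89 to 30.6 ± 2.8 CPM at 24 h. The list's medians were 0.26, -0.21 and 0.02. With GC content corrected, as described below for Hif1a, 11, 6 and 9 of the 20 were called at 4, 12 and 24 h. Of these, 10, 2 and 8 were higher and 1, 4 and 1 lower. Calls over all genes went from 2390 to 3813, from 2169 to 3516 and from 2813 to 4138. In them 2360, 1948 and 2261 were higher and 1453, 1568 and 1877 lower.

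**Figure D4:**
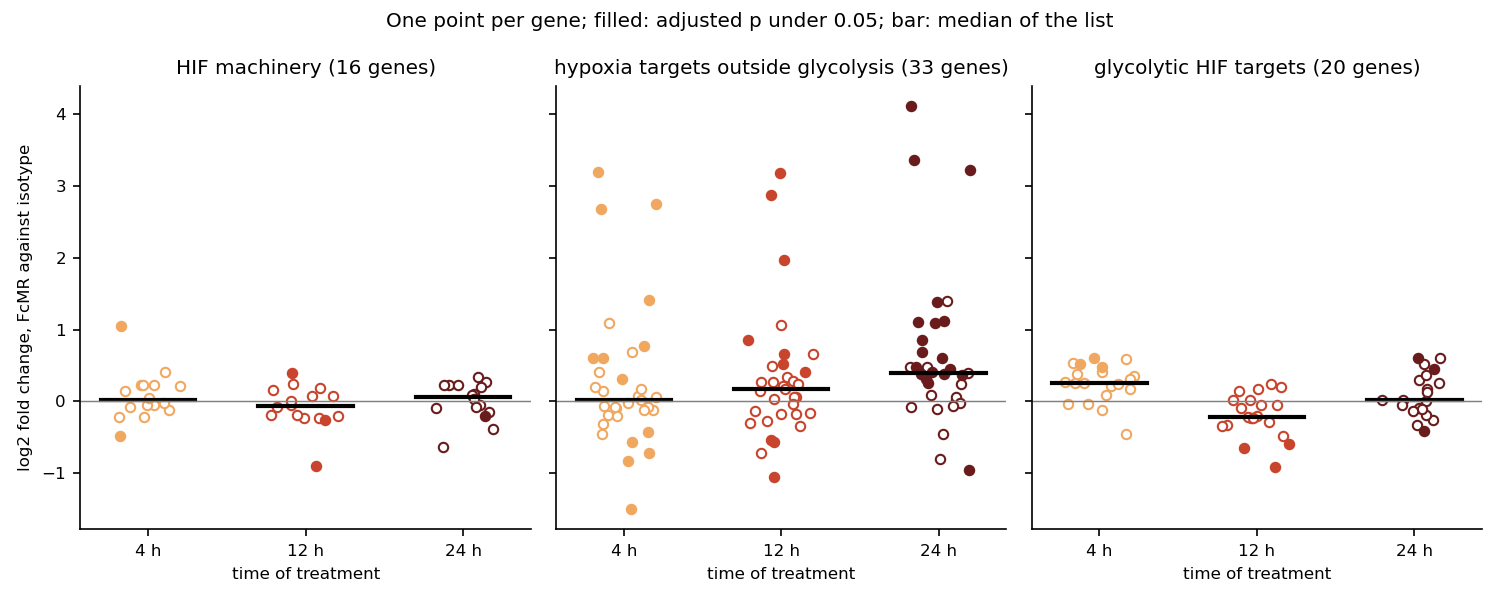
Log2 fold change of FcMR against isotype (vertical axis) for each tested gene of the 3 lists at 4, 12 and 24 h; 1 point a gene, filled where the adjusted p was under 0.05, bar at the median. At 24 h the median of the targets outside glycolysis was 0.40 and that of the glycolytic targets 0.02.

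Across the 21 libraries, Egln3 and Bnip3 varied together (Pearson r of log2 CPM 0.923), as did Vegfa and Ankrd37 (0.889). Hif1a and Epas1 had an r of -0.544. On deviations from group means the values were 0.509, 0.583 and -0.513. The first 2 were lower there, and the Hif1a and Epas1 value was close to that over all libraries. Inside groups Hif1a and Epas1 also varied in opposite ways with the GC tilt described below (r of -0.907 and 0.556). The part of the tilt in their value was not tested. The gene outside the 9 with the highest r over the 21 libraries was Sec23a for Hif1a (0.92), Atp6v0a1 for Epas1 (0.935), Cdh23 for Egln1 (0.939), Mob3b for Egln3 (0.913), Cgnl1 for Vegfa (0.942), Cry1 for Bnip3 (0.899), Osm for Ndrg1 (0.872), Pfdn5 for Ankrd37 (0.865) and Plk2 for Adm (0.943). On deviations from group means, the r of these pairs ran from 0.212 (Osm and Ndrg1) to 0.9 (Sec23a and Hif1a). It was 0.258 for Plk2 and Adm and 0.295 for Cry1 and Bnip3. The libraries share groups, depth and GC tilt, so no p is given.

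Base composition moved with several members inside groups. The GC tilt of a library is the mean log2 deviation of the 10% most GC-rich genes minus that of the 10% most GC-poor, and it ran from -1.66 to 0.886. Within groups, Hif1a (41.3% GC) had an r of -0.907 with the tilt and Bnip3 (41.6%) -0.649, whereas Egln1 (56.0%) had 0.925 and Vegfa (50.9%) 0.887. Epas1 had 0.556 and Ankrd37 0.551, and Egln3, Ndrg1 and Adm had 0.00, 0.06 and 0.03. The highest Hif1a library of the FcMR 12 h group, replicate 1, had a tilt of -0.785 where the others had 0.765 and 0.871. The highest with FcMR at 24 h, replicate 2, had -1.41. In the isotype 4 h group the highest Hif1a library, replicate 2 at 408 CPM, had the lowest tilt of all, -1.66. Replicates 1 and 3 of that group had -0.871 and 0.661. With the GC trend of each library removed, the Hif1a rise was 0.55 at 4 h (adjusted p = 1.12e-06), 0.59 at 12 h (adjusted p = 4.2e-07) and 1.13 at 24 h (adjusted p = 5.16e-11) in edgeR, and every member called at 12 or 24 h kept its call.

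**Figure D5:**
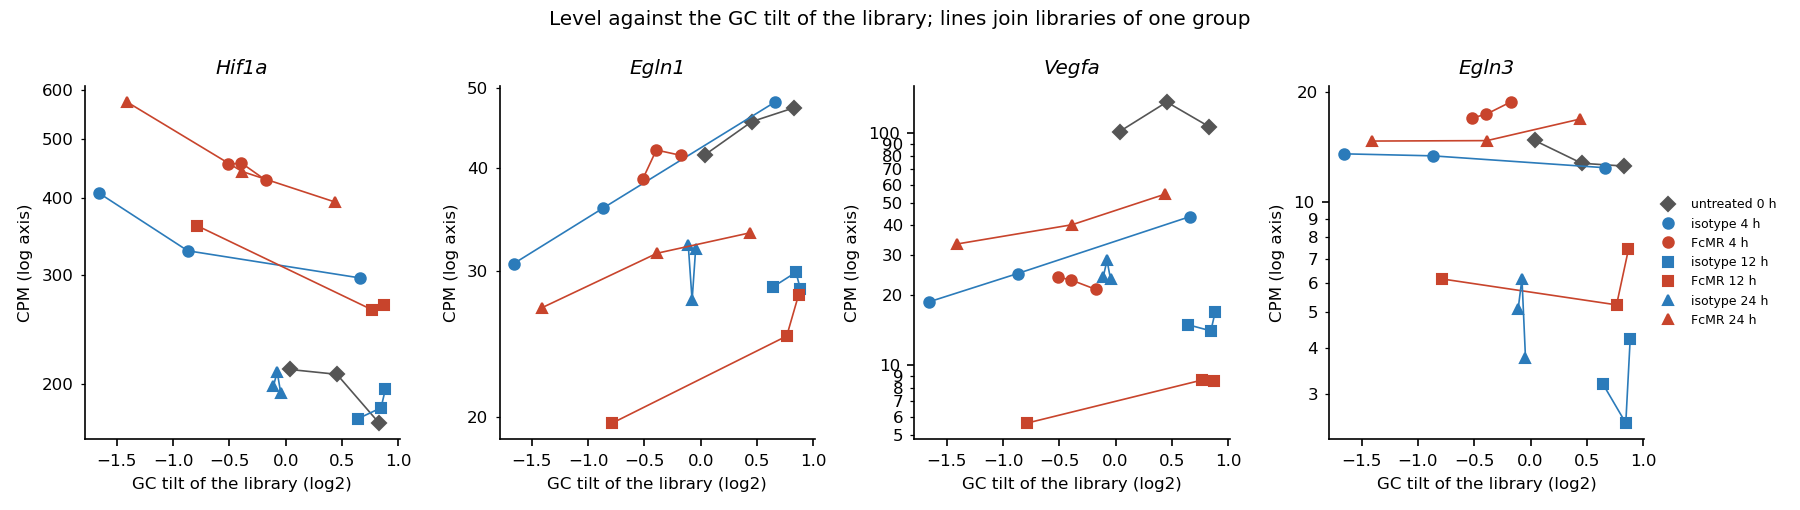
CPM (vertical axis, logarithmic) of Hif1a, Egln1, Vegfa and Egln3 against the GC tilt of the library (horizontal axis, log2); lines join libraries of 1 group, in order of tilt. Within groups Hif1a falls and Egln1 and Vegfa rise with the tilt (r of -0.907, 0.925 and 0.887), and Egln3 shows no such slope (0.00).

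Library totals ran from 5532225 to 66729533 counts. Each library was compared with the other libraries of every group by its mean Pearson r of log2 CPM with them. By that value 19 of 21 were most like their own group. Isotype 4 h replicate 1 was most like FcMR 4 h, and isotype 4 h replicate 3 most like isotype 12 h. In the numbering of the titles, isotype 4 h replicate 3 and FcMR 12 h replicate 1 each hold the number that the order of the groups would give the other; the labels were kept, and whether the samples were exchanged was not tested. Without isotype 4 h replicate 3 the 4 h differences were 0.28 for Hif1a, 1.42 for Ndrg1 and 1.77 for Adm. Of these, Ndrg1 and Adm passed and Hif1a did not, as with that library. Mrc1, which encodes the mannose receptor, had 0 to 11 counts per library, and Ptprc (CD45) 521 to 1210 CPM. All 8 macrophage markers were measured, with a summed level of 21100 to 35900 CPM over the libraries. At 24 h the sum was 31700 to 35900 CPM with isotype and 26600 to 28500 with FcMR. It was mostly Lyz2, at 16600 to 30500 CPM over the libraries, and no other macrophage marker exceeded 1800 CPM. The 6 dendritic cell markers, mostly Itgax and Ccr7, summed to 1460 to 1520 CPM with isotype and 1650 to 1820 with FcMR at 4 h. At 24 h they summed to 1410 to 1540 and 1590 to 1670 CPM, while at 12 h the ranges overlapped. The 8 neutrophil markers summed to 1400 to 1620 CPM untreated, 183 to 218 with isotype and 204 to 228 with FcMR at 24 h, so they fell over the time in which Vegfa, Bnip3, Egln3 and Ankrd37 fell under isotype; their part in that was not tested. Stromal markers summed to 0.322 to 1.37 CPM with isotype and 7.83 to 10.6 with FcMR at 24 h. Over all libraries Pdgfrb reached 14.5 CPM and Dcn 3.49, and no other stromal marker exceeded 1.62 CPM. At 4 h the 2 measured endothelial markers, mostly Kdr, summed to 54.7 to 58.5 CPM with isotype and 109 to 119 with FcMR. The part of stromal and endothelial markers in the member results was not tested. In bulk RNA, fewer cells of a type and less RNA per cell cannot be told apart.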

How the data were processed

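RNA-seq libraries (TruSeq RNA v2, 75 bp single-end reads, per the labels) were quantified before deposit; the submitters' processing notes name kallisto 0.44.0, CASAVA 1.8.2, DESeq2 and mm10/GRCm38 without saying how each was used. The authors deposited estimated counts per gene as whole numbers, so rounding changed none; every gene had at least 10 counts in sum. The deposited normalized signal equals those counts divided by a factor per gene and library, and was used only for an alternative scaling. Whether counting used strand is not given in the sources used here.

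Groups and replicate numbers came from the sample titles. IDs were matched without version to GENCODE M21 (GRCm38), giving 23206 of 23250 genes a symbol. All comparisons were read from 1 fit of 21 libraries in edgeR 4.0.16 (quasi-likelihood F test, R 4.3.3) with TMM scaling and filterByExpr (minimum count 10). It tested 13468 genes, and called means an adjusted p (Benjamini-Hochberg, over all genes tested) under 0.05. The SE is the fold change divided by the root of the F statistic. The script was tested on simulated data. Alternatives were RLE and the authors' factors, 2 other filters, DESeq2 1.42.0, limma-voom (limma 3.58.1), the replicate block, GC correction, thinning, other sets of libraries and leaving out each library. Single differences of the FcMR effect between times were not rerun under them. No label says that replicates are separate mice or cultures, so p-values measure only the spread between these samples, which may be technical; no pair of replicate libraries was counted as 1.

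The 9 genes and the lists were chosen with earlier results of these data known. Besides the 9, the text names by rule the 2 highest and 2 lowest called list genes per FcMR comparison (average log2 CPM of at least 1, no overlap) and the gene most like each member; 1 list gene that this rule names is not reported here. Other list genes with values (Cited2, Vhl, Arnt, Arnt2, Hif1an, Ep300, Eloc, Pfkp, Hk1, Hk2, Pfkfb4, Pfkfb3, Pgk1, and Narf at 24 h) and Ufsp2 were named after their values were seen. Hif3a and Car12 did not pass the filter, and Epo and Ppp1r3c were not analysed here. Hif1a overlaps Gm49321 and the antisense Gm15283, each at under 2% of its counts.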

Additional observations from a re-analysis of the deposited data

Results flagged for a closer look

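The FcMR effect differed between 4, 12 and 24 h for 7 genes in the joint edgeR test over both differences. Its adjusted p was 0.00757 for Vegfa, lower with FcMR at 12 h and higher at 24 h, and 0.00791 for Bnip3 and 0.0123 for Egln3, whose differences were largest at 24 h. It was 0.0137 for Ndrg1, whose rise was largest at 4 h, and 0.0213 for Ankrd37, called at 24 h alone. It was 0.025 for Hif1a and 0.0266 for Epas1, which moved in opposite directions. Hif1a kept the joint call in 17 of 30 alternatives, Epas1 in 24, Ankrd37 in 27, Egln3 in 28, Bnip3 and Ndrg1 in 29 each, and Vegfa in 30.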

How the results depend on the processing

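The FcMR calls of Hif1a and Egln3 at 12 and 24 h, of Epas1, Bnip3 and Ankrd37 at 24 h, of Vegfa at 12 h and of Ndrg1 at all 3 times were kept in all 18 alternatives run for each. Over all single-gene values, 1130 kept direction and call, 60 lost and 13 gained a call, and 36 changed sign, all of them values not called in the first place. The causes of these moves were not tested. RLE and the authors' factors moved the median of all genes by less than 0.1.

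Members called at 4 h were 4 with DESeq2, with GC correction and with the replicate block plus GC correction, and 1 to 2 when leaving out a library; members in the joint test were 3 after thinning to the smallest total and 3 to 7 when leaving out a library. The HIF machinery count was 1, 1 and 0 at 4, 12 and 24 h with the authors' factors. With GC correction it was 5 at 4 h and 2 at 24 h, and with the block plus GC correction 5 and 4. Without both libraries out of title order (FcMR 12 h replicate 1, isotype 4 h replicate 3) it was 7 at 4 h and 3 at 24 h. Thinning gave 1 at 12 h and 0 at 24 h, fitting only the libraries compared gave 0 at both, no expression filter gave 0 at 24 h, and the block gave 2 at 24 h. Leaving out a library gave 2 to 5, 1 to 3 and 0 to 2. The glycolytic count was 5 at 4 h and 1 at 12 h with the authors' factors, 7 at 4 h with DESeq2, 11, 6 and 9 with GC correction, 11, 7 and 9 with the block plus GC correction, 10 at 4 h without both libraries, and 3 to 8, 1 to 3 and 2 to 5 when leaving out a library.

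Over all genes, calls at 4 h were 3813 with GC correction, 3998 with the block plus GC correction, 3898 without both libraries, 868 with only the libraries compared, and 1589 to 3151 when leaving out a library. At 12 h they were 3516 and 3699 with GC correction without and with the block, and at 24 h 4257 with both. Isotype against untreated at 4 h gave 2881 with only the libraries compared. The joint test gave 925 with no filter, 3105 and 3328 with GC correction without and with the block, 950 after thinning, 2616 without both libraries, and 973 to 2294 when leaving out a library.

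Signs changed for FcMR against isotype as follows. At 4 h, Vegfa was 0.125 with the authors' factors, 0.055 without both libraries and -0.55 to 0.06 when leaving out a library; Bnip3 was -0.11 without both libraries and -0.11 to 0.15 when leaving out a library; Egln1 was 0.00 to 0.30 when leaving out a library (-0.001 at the lowest); Ankrd37 was 0.26 after thinning. At 12 h Ankrd37 was -0.46 to 0.10 when leaving out a library. At 24 h Egln1 was 0.011 with no filter, 0.18 with GC correction with or without the block, 0.002 without both libraries and -0.062 to 0.088 when leaving out a library. Over the times, Egln1 was 0.15 and 0.16 with GC correction without and with the block and -0.29 to 0.007 when leaving out a library, and Adm -1.52 to 0.56. For isotype against untreated at 4 h, Epas1 was -0.60 to 0.12 when leaving out a library, Egln1 0.129 and 0.131 with GC correction without and with the block, and Egln3 0.003 with GC correction, 0.073 after thinning, 0.008 without both libraries and -0.089 to 0.048 when leaving out a library. At 12 h Hif1a was 0.007 and 0.006 with GC correction without and with the block. At 24 h Epas1 was 0.051 after thinning and -0.26 to 0.18 when leaving out a library, Hif1a -0.063 to 0.082 and Adm -2.01 to 0.066.

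Same-numbered libraries did not deviate together: the mean correlation of their deviations was -0.0708, 0.106 and 0.0138 for FcMR against isotype at 4, 12 and 24 h, so the numbers were not taken as pairing. With the replicate block, 2, 4 and 7 members were called in these comparisons, 5, 7 and 6 in isotype against untreated, and 7 in the joint test. The 2 single-gene calls that changed under it were Epas1 for FcMR at 12 h (-0.95, adjusted p = 0.0518, edgeR) and Bnip3 for isotype against untreated at 4 h (-0.39, adjusted p = 0.0539, edgeR). Where a library is left out of 3, the spread comes from the other groups too. Depth limits Adm and Epas1 most: 3 counts correspond to 0.0454 to 0.559 CPM, counting error only.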
